A study of Mus musculus with 21 samples.

Results

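The 9 genes described here encode the enzymes of the pentose phosphate pathway together with a pair of other cytosolic sources of NADPH. They are *G6pdx*, *Pgls*, *Pgd*, *Tkt*, *Taldo1*, *Rpia*, *Rpe*, *Me1* and *Idh1*. They were taken by symbol: rows of the deposited liver count table whose Ensembl identifier carries one of these symbols in GENCODE M21 on GRCm38. That gave 9 of 46078 gene identifiers, and all 9 passed the filter on low counts, which left 14370 genes for testing.

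The data were poly(A) RNA sequencing of mouse liver, 21 libraries in 6 groups, from a cross of 2 genotypes with 3 diets. KO animals, labelled cse, lacked *Cse* (symbol *Cth*), the gene of cystathionine gamma-lyase, which makes cysteine from cystathionine, and were on a 129/C57BL/6 background. The comparison animals are labelled WT, whereas the study's text describes its comparison animals as heterozygous (Cse+/-); WT below is the label. All animals were calorie restricted males at least 9 weeks old. After 3 days on a calorie-restricted control diet they received a calorie-restricted control diet (CTR), a diet without cysteine (noCys) or a diet without tryptophan (noTrp) for 2 days, and in the depleted diets the remaining amino acids were raised in proportion. There were 3 WT CTR, 4 KO CTR, 4 WT noCys, 3 KO noCys, 2 WT noTrp and 5 KO noTrp libraries. The titles call the libraries of a group biological replicates.

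Library totals ran from 8889951 to 27230852 counts, and mitochondrial genes took 3.41% to 7.67% of them. *Cth* was 108 to 452 counts per 1000000 (CPM) in WT libraries and 6.34 to 15 CPM in KO libraries, with no overlap on any diet, and whether the reads counted in KO libraries lie in the deleted part was not examined. Hepatocyte markers (*Alb*, *Apoa1*, *Ttr*, *Cps1*, *Ass1*, *Tat*, *Hnf4a*) were present in every library, with summed levels from 41688 to 107624 CPM. Markers of muscle summed to at most 3.66 CPM and those of exocrine pancreas to at most 35.2 CPM. WT noTrp replicate 1 stood apart from replicate 2: *Igfbp1* was 1946 against 206 CPM, *Pdk4* 25.7 against 3.5 CPM and *Ppp1r3g* 459 against 11.9 CPM, all genes known to follow feeding and insulin. The KO noTrp libraries were spread as well: *Igfbp1* was 1198 and 678 CPM in replicates 1 and 2 against 141 to 253 CPM in the others, *Ppp1r3g* 48.6 and 134 against 8.29 to 12.5 CPM, and *Pdk4* 15.4 CPM in replicate 1 against 2.08 to 6.21 CPM.

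As background, the pentose phosphate pathway begins with glucose 6-phosphate. Its oxidative arm yields NADPH at the glucose-6-phosphate dehydrogenase and phosphogluconate dehydrogenase steps, with a lactonase between them, and ends in ribulose 5-phosphate. The non-oxidative arm isomerises that product and exchanges carbon units between sugars, linking ribose 5-phosphate for nucleotides to glycolysis. Malic enzyme 1 and isocitrate dehydrogenase 1 make NADPH outside this pathway, in the cytosol. NADPH supplies reducing power for fatty acid and sterol synthesis in liver and for the reductases that keep glutathione and thioredoxin reduced.

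Per kilobase of exon, counting the exons of every annotated transcript, the 9 genes kept nearly the same order of levels in all libraries. *Idh1* was highest in 21 of 21 libraries, with a median of 96.8 CPM per kb. *Taldo1* was next in every library, at a median of 52.6 CPM per kb. *Me1* and *Pgls* (medians 24.3 and 22.4 CPM per kb) exchanged the places 3 and 4 between libraries, and *Tkt* held place 5 throughout at a median of 15 CPM per kb. This order depends on the exon length used, 7355 bases for *Tkt* against 3848 for *Me1* and 3770 for *Pgls*. In CPM without length the mean over all libraries was 107.7 for *Tkt*, 99.8 for *Me1* and 86.0 for *Pgls*. *Rpe* and *Pgd* (6.26 and 5.30 CPM per kb) exchanged places 6 and 7. *G6pdx* and *Rpia* were lowest, at 0.956 and 0.682 CPM per kb, and exchanged places 8 and 9. In raw counts that left 14 to 101 for *G6pdx* (median 37) and 24 to 130 for *Rpia* (median 50), so these genes carried the widest counting error, against 1685 to 9472 counts for *Idh1*. The ratio of the highest to the lowest library was 4.89 for *G6pdx* and 4.15 for *Me1* but 1.40 for *Taldo1*.

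**Figure D1:**
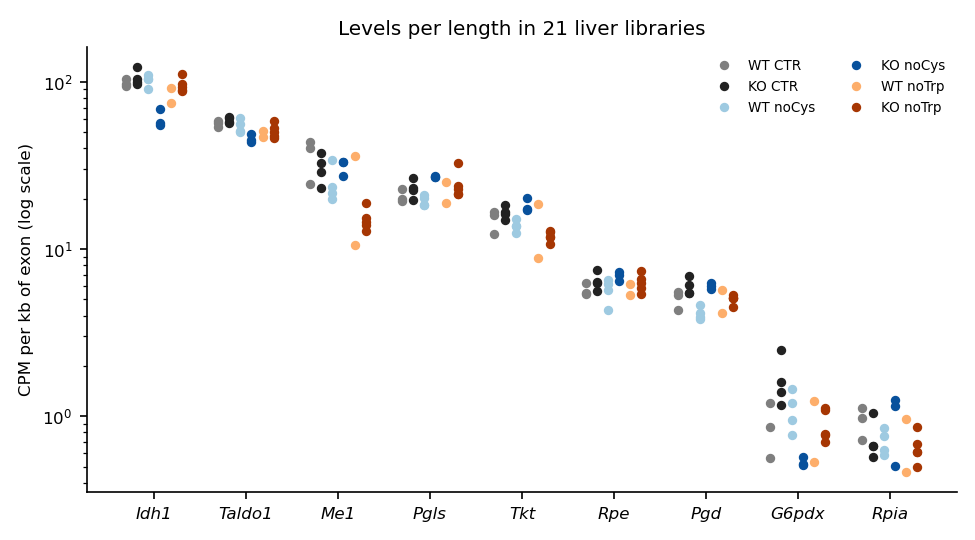
Level of each gene in CPM per kb of exon on a log scale, one point per library coloured by group (WT or KO on CTR, noCys or noTrp). *Idh1* and *Taldo1* hold the top places in all 21 libraries, and *G6pdx* and *Rpia* the lowest, with medians of 0.956 and 0.682.

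Counting near other genes limits some of these values. *G6pdx* (ENSMUSG00000031400, chrX:74409483-74429194, minus strand) shares 418 exonic bases with *Ikbkg* on the opposite strand, *Pgls* (ENSMUSG00000031807, chr8:71592176-71601092, plus strand) shares 776 with *Fam129c* on the same strand, and *Rpe* (ENSMUSG00000026005, chr1:66700831-66719805, plus strand) shares 558 with *Kansl1l* on the opposite strand. *Me1* (ENSMUSG00000032418, chr9:86581371-86695953, minus strand) shares 30 bases with an antisense transcript. *Pgd* (ENSMUSG00000028961, chr4:149149991-149166771), *Taldo1* (ENSMUSG00000025503, chr7:141392199-141402968), *Rpia* (ENSMUSG00000053604, chr6:70765720-70792232) and *Idh1* (ENSMUSG00000025950, chr1:65158616-65186500) overlap no other gene, and *Tkt* (ENSMUSG00000021957, chr14:30548359-30574720) shares 1 base with a microRNA. The strand setting of the counting was not given in the sources used here, so reads in exons shared with the opposite strand cannot be assigned to either gene with certainty. For *Pgls* and *Fam129c*, on the same strand, no strand setting would separate such reads. *G6pd2*, a retrocopy of *G6pdx*, had at most 2 counts in any library.

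The promoters of *G6pdx*, *Pgd*, *Me1* and *Idh1* are shown as those of the enzymes that make NADPH, *G6pdx* and *Idh1* called lower and *Pgd* higher in KO noCys liver and *Me1* lower in KO noTrp liver. Sequences are from RefSeq on GRCm38.p6, and each window runs 5′ to 3′ on the gene's strand from 250 bases before to 50 bases after the first annotated start. Capitals mark the core of the antioxidant response element, TGACNNNGC on either strand, which NRF2, a transcription factor of the oxidative stress response, is known to bind. The windows are chrX:74428831-74429130, chr4:149166656-149166955, chr9:86695865-86696164 and chr1:65186430-65186729, all on the minus strand.
G6pdx: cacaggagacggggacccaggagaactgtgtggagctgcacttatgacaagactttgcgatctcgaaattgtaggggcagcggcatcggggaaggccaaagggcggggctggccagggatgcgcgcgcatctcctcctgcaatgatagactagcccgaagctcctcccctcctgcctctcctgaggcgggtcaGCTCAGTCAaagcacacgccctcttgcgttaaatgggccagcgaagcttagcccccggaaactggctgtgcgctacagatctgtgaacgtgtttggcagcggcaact
Pgd: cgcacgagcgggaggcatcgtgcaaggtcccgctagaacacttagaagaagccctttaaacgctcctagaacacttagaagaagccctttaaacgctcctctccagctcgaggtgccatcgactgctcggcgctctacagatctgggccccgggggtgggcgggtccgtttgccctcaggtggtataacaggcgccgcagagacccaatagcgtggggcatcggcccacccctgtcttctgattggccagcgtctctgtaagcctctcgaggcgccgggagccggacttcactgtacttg
Me1: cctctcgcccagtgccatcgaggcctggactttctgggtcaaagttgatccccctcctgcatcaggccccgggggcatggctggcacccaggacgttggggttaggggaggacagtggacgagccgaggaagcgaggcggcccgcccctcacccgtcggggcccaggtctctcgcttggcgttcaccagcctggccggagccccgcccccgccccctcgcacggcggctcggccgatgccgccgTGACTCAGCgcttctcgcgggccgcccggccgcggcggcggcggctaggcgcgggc
Idh1: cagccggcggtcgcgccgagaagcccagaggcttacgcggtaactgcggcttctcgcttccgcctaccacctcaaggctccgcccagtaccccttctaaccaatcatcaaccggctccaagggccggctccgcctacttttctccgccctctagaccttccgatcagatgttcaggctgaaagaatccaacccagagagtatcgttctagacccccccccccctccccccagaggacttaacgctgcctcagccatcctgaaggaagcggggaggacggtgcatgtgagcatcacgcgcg

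The core begins 57 bases before the start in *G6pdx* and 6 bases before it in *Me1*, where it runs across the start. Neither *Pgd* nor *Idh1* has it in the window shown. Nor do the windows of *Pgls*, *Taldo1* and *Tkt*, which were also called in comparisons below, or those of *Rpia* and *Rpe*. All 9 genes matched the RefSeq table, with 12 windows, as *Pgd*, *Me1* and *Idh1* have a further start. A core was found in 3 of these 12 windows, the third at the further start of *Pgd*, against 12.4% of all 32851 windows of the same length. GGGCGG, the GC box, was in 10 of 12 windows (35.7% of all windows), CCAAT in 5 of 12 (37.4%) and CACGTG, the E-box, in 0 of 12 (7.15%), each searched on both strands and with 0 overlaps between matches of different motifs. A match describes letters in a window and was not tested for binding.

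The first question was how KO and WT livers differed when cysteine was removed from the diet. In KO noCys against WT noCys liver 5 of the 9 genes were called at an adjusted p under 0.05 by edgeR's quasi-likelihood test. *Pgd* and *Pgls* were higher and *Idh1*, *G6pdx* and *Taldo1* lower in KO than in WT liver on this diet. The share called among all genes tested was 28.2%, with 14.8% higher and 13.4% lower for the 2 of 9 and 3 of 9 here, and nothing particular to these genes is read from the counts. Libraries of the groups did not overlap for 6 of 9 genes, against 37.6% of all genes. The median absolute log2 fold change was 0.47 over the 9 genes and 0.35 over all genes. The differences did not share a direction within the oxidative arm, where the first enzyme was lower in KO liver and the following ones higher.

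**Figure D2:**
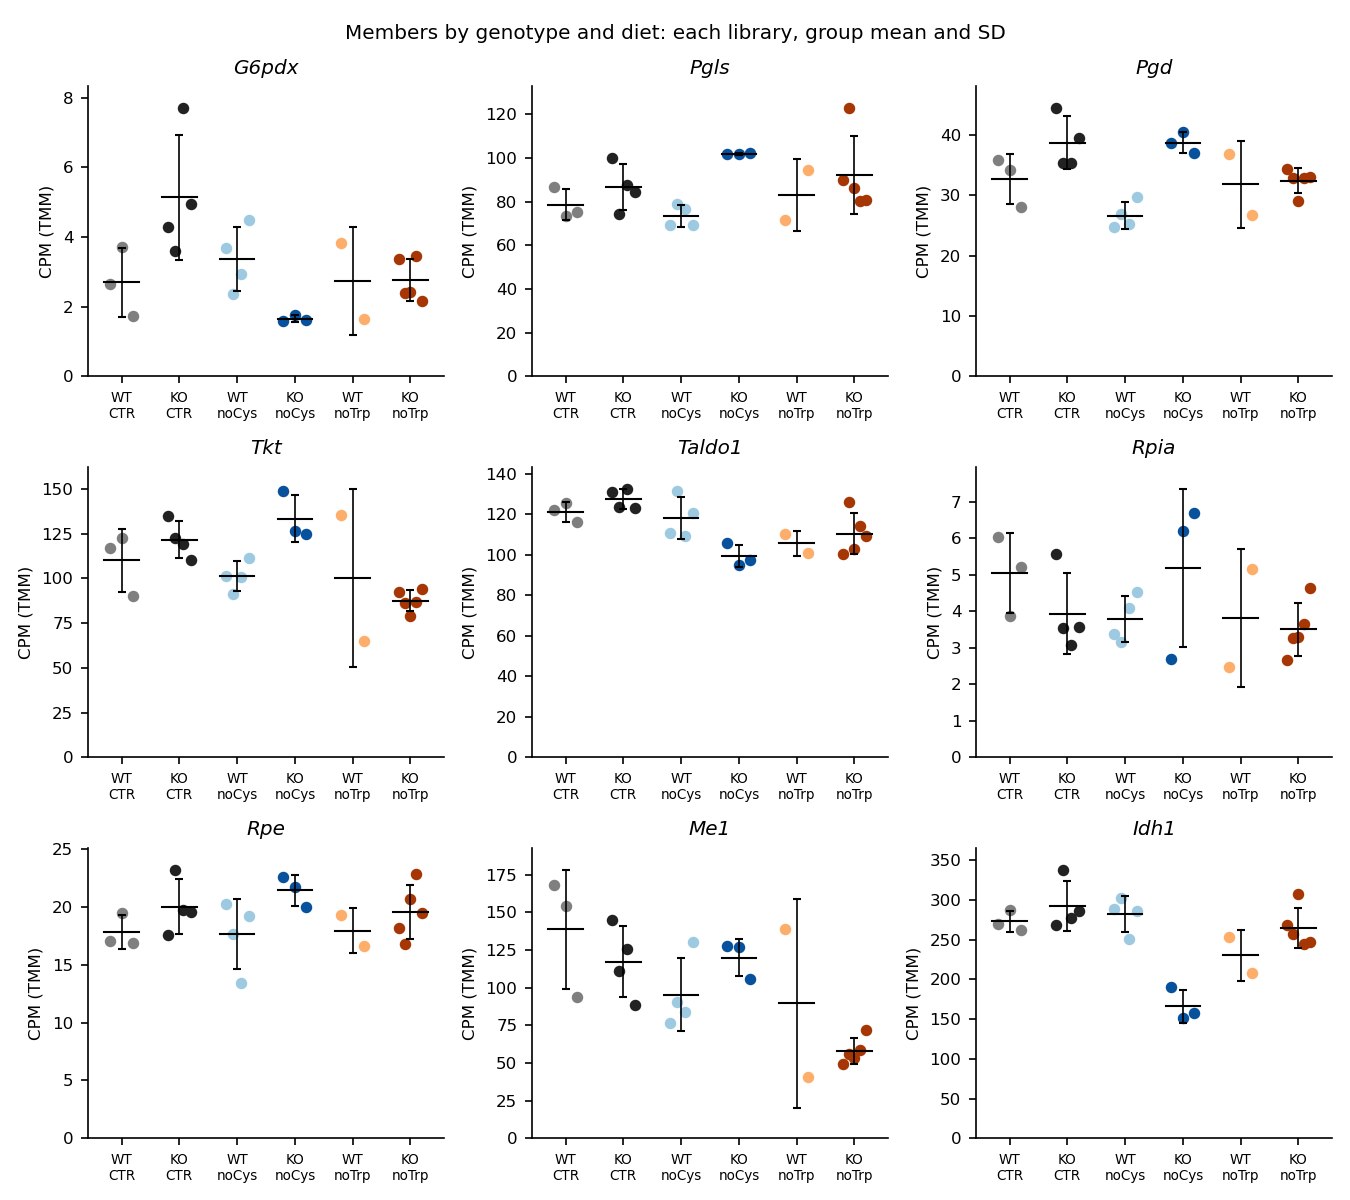
CPM after TMM scaling of each gene in every library by genotype and diet, with the group mean (long bar) and SD (whiskers), axes from 0. *Idh1* at 152 to 190.0 CPM in KO noCys liver lies below every other library, and *Me1* and *Tkt* are low in KO noTrp liver and in 1 of 2 WT noTrp libraries.

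*Idh1*, the NADP-dependent isocitrate dehydrogenase of cytosol and peroxisome, was 190.0, 152 and 157 CPM in KO noCys liver and 289, 302, 251 and 286 CPM in WT noCys liver. Every KO noCys library was lower than all other 18 libraries, whose lowest value was 207 CPM. The fitted difference from WT noCys was -0.76 on the log2 scale (SE 0.11, 95% interval -1.0 to -0.52), a 1.70-fold lower level, with an adjusted p of 7.68e-05. The call was made without each of the 7 libraries in turn (-0.87 to -0.70) and under all alternatives (-0.82 to -0.56). Summed hepatocyte markers moved with it: 41688 to 70738 CPM in KO noCys and 93504 to 107624 CPM in WT noCys liver, with 2 of 7 markers called lower and 0 higher. The part of these markers in the *Idh1* result was not tested, and in bulk RNA fewer cells of a type and less RNA per cell cannot be told apart.

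*G6pdx*, the X-linked glucose-6-phosphate dehydrogenase that commits glucose 6-phosphate to the pathway, was 1.58, 1.76 and 1.61 CPM in KO noCys liver and 3.68, 2.37, 2.94 and 4.48 CPM in WT noCys liver. The groups did not overlap, and the KO noCys values lay close together. The difference was -1.05 (SE 0.33, 95% interval -1.74 to -0.35), a 2.06-fold lower level, with an adjusted p of 0.0246. This call was lost in 4 of 7 fits that left out a library (WT noCys replicate 4, -0.87, adjusted p 0.0769; KO noCys replicate 1, -1.02, 0.0550; replicate 3, -1.10, 0.0725; replicate 4, -1.02, 0.0735). It was also lost with library totals as the only scaling (-0.83, adjusted p 0.0588). Cholangiocyte markers, whose sum was 16.1 to 18.1 CPM in KO noCys and 34.2 to 57.8 CPM in WT noCys liver with 2 of 5 called lower, moved the same way, as did erythroid markers (128 to 158 against 183 to 375 CPM, 3 of 5 tested called lower). Kupffer cell and leukocyte, endothelial and stellate markers had 1 of 8, 2 of 5 and 1 of 5 called lower and 0 higher, and of 3 adipocyte markers tested 2 were called lower and 1 higher. The part of these markers in the *G6pdx* result was not tested.

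*Pgls*, the lactonase that follows, was 101.6, 101.6 and 102.3 CPM in KO noCys liver and 69.2, 78.7, 76.5 and 69.0 CPM in WT noCys liver. The groups were apart, with the KO libraries nearly identical. The difference was 0.47 (SE 0.14, adjusted p 0.0128), 1.39-fold higher. *Pgd*, which makes the second NADPH of the pathway, was 38.6, 40.5 and 37.0 CPM against 24.7, 26.8, 25.2 and 29.7 CPM, again without overlap. Its difference was 0.54 (SE 0.12, adjusted p 0.00183), 1.45-fold higher. Both calls were made without each of the 7 libraries in turn, with ranges of 0.44 to 0.51 for *Pgls* and 0.50 to 0.60 for *Pgd*, and under all alternatives.

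In the non-oxidative arm only *Taldo1* was called. *Taldo1*, transaldolase, was 106, 95.2 and 97.6 CPM in KO noCys liver and 111, 132, 109 and 121 CPM in WT noCys liver, so the groups lay apart by a small margin. The difference was -0.25 (SE 0.09, adjusted p 0.0479), a 1.19-fold lower level. The call was lost in 4 of 7 fits that left out a library (WT noCys replicate 2, -0.19, adjusted p 0.143; replicate 4, -0.24, 0.0887; KO noCys replicate 3, -0.21, 0.175; replicate 4, -0.23, 0.126). It was also lost with no filter on low counts (-0.24, adjusted p 0.185), in a fit of these groups only (-0.25, 0.0827) and with the replicate number as a block (-0.22, 0.106). With library totals alone the *Taldo1* difference was -0.04 (adjusted p 0.813), while the median over all genes moved from -0.02 to 0.20 and the share of calls that were higher from 52.5% to 80.0%.

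*Tkt*, transketolase, which exchanges carbon units with pentose phosphates, was 149, 127 and 125 CPM in KO noCys and 102, 91.1, 101 and 112 CPM in WT noCys liver. These groups did not overlap, but the difference of 0.40 (SE 0.16, 95% interval 0.05 to 0.74) did not pass the test (adjusted p 0.0779). It passed with limma-voom (0.36, adjusted p 0.0328), with library totals alone (0.60, 0.00694) and in a fit of these groups only (0.39, 0.0183). *Rpe*, the epimerase, was 22.6, 21.7 and 19.99 CPM against 20.2, 17.7, 13.4 and 19.2 CPM, a difference of 0.27 (adjusted p 0.139) that passed with library totals alone (0.48, 0.0160). *Rpia*, the isomerase that yields ribose 5-phosphate, was 2.71, 6.19 and 6.68 CPM against 3.38, 3.15, 4.08 and 4.53 CPM. Its KO noCys libraries lay on both sides of the WT noCys range, and the difference was 0.48 (95% interval -0.13 to 1.09, adjusted p 0.232; with limma-voom 0.60, 0.0497). *Me1*, the NADP-dependent malic enzyme of the cytosol, was 128, 127 and 106 CPM against 76.5, 90.7, 83.7 and 131 CPM, with overlap, a difference of 0.33 and an interval of -0.27 to 0.93 (adjusted p 0.409).

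**Figure D3:**
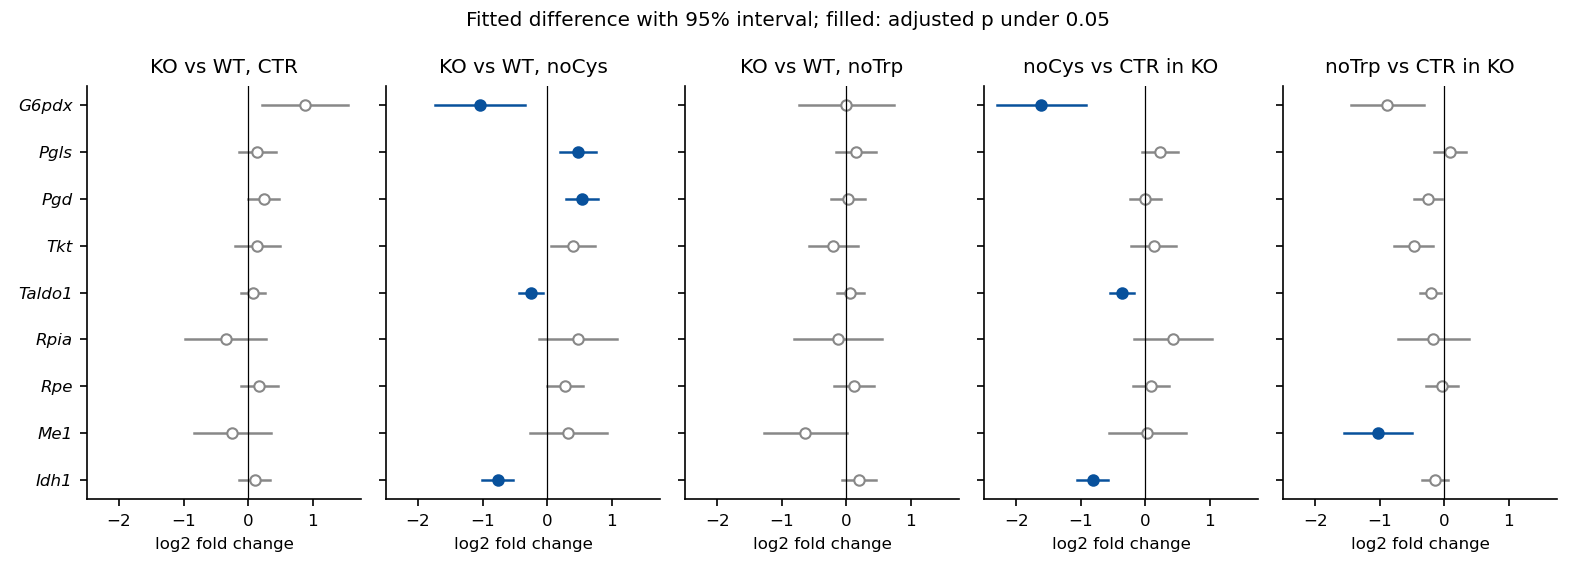
Fitted log2 fold change (points) and 95% interval (lines) of each gene in 5 comparisons, filled where the adjusted p was under 0.05. Calls are seen for 5 genes in KO against WT on noCys, 3 in noCys against CTR within KO and 1, *Me1*, in noTrp against CTR within KO.

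On the other diets none of the 9 genes was called between the genotypes in the fit to all libraries. On CTR 0 of 9 were called by edgeR, DESeq2 or limma-voom, and 0.320% of all genes were called by edgeR. At an unadjusted p under 0.05 by edgeR there was 1 of 9, against 9.59% of all genes. That gene was *G6pdx*, at 4.28, 3.6, 7.72 and 4.93 CPM in KO CTR and 2.65, 3.71 and 1.74 CPM in WT CTR liver. The groups overlapped, and the difference was 0.88 (95% interval 0.21 to 1.56, adjusted p 0.336), opposite in sign to that on noCys. *Me1* differed by -0.24 (95% interval -0.84 to 0.35) on CTR, and the other 7 genes by -0.35 (*Rpia*) to 0.24 (*Pgd*).

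On noTrp, with 2 WT libraries, 0 of 9 genes were called by each of the 3 tools, against 0.195% of all genes by edgeR, and 0 had an unadjusted p under 0.05 by edgeR, against 8.91% of all genes. *Me1* was 49.1, 56.1, 53.2, 58.9 and 72.2 CPM in KO noTrp liver but 139 and 40.6 CPM in the WT noTrp libraries 1 and 2, which lay on either side. The *Me1* difference was -0.63 (adjusted p 0.576), and became -1.26 (adjusted p 0.0201) without WT noTrp replicate 2 and 0.51 (adjusted p 0.668) without replicate 1. *Tkt* did the same, at 136 and 65.3 CPM in WT noTrp against 78.9 to 94.2 CPM in KO noTrp liver: its difference of -0.20 was -0.63 (adjusted p 0.0375) without replicate 2 and 0.43 (adjusted p 0.473) without replicate 1. The sign for both genes depended on which WT noTrp library was used. The other 7 genes differed by -0.12 (*Rpia*) to 0.20 (*Idh1*). The pair of WT noTrp libraries also lay on both sides of the KO noTrp mean for *G6pdx* (3.82 and 1.64 CPM), *Pgls* (71.4 and 94.5 CPM), *Pgd* (36.9 and 26.7 CPM) and *Rpia* (2.48 and 5.15 CPM).

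Whether the genotype difference itself depended on diet was tested as a difference of differences. From CTR to noCys the KO against WT difference changed for 2 of 9 genes, against 7.44% of all genes. *G6pdx* changed by -1.93 (SE 0.46, 95% interval -2.90 to -0.96, adjusted p 0.0157), from the 0.88 on CTR, which was not called, to the -1.05 on noCys. *Idh1* changed by -0.86 (SE 0.16, adjusted p 0.00323). *Taldo1* was not called, with a change of -0.32 (adjusted p 0.134; with limma-voom -0.35, 0.0359), and the other 6 genes changed by 0.10 (*Rpe*) to 0.83 (*Rpia*), with none called by edgeR. Set against noTrp in place of CTR, *Idh1* alone of the 9 was called, at -0.96 (SE 0.17, adjusted p 0.00206), against 6.35% of all genes, while 6 of 9 had an unadjusted p under 0.05, against 21.1% of all genes. Without WT noTrp replicate 1 the *Idh1* value was -1.11 (adjusted p 0.00571), and without replicate 2 it was -0.82 (adjusted p 0.0165). Among those not called, *Pgd* changed by 0.51 (adjusted p 0.0806), by 0.27 (adjusted p 0.452) without WT noTrp replicate 1 and by 0.73 (adjusted p 0.0181) without replicate 2; with library totals alone it was called at 0.70 (adjusted p 0.0252). *G6pdx* changed by -1.05 (adjusted p 0.219), by -1.79 (adjusted p 0.0762) without replicate 1 and by -0.57 (adjusted p 0.544) without replicate 2. *Taldo1* changed by -0.31 (adjusted p 0.184), with -0.37 and -0.25 without replicates 1 and 2. The values for *Pgls*, *Rpia* and *Rpe* were 0.32, 0.60 and 0.15, and these did not pass either. *Tkt* changed by 0.59 (adjusted p 0.159) and *Me1* by 0.96 (adjusted p 0.188), values that turned to -0.03 and -0.18 without WT noTrp replicate 1 and were called at 1.03 (adjusted p 0.00269) and 1.59 (adjusted p 0.00831) without replicate 2.

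Within KO livers, removing cysteine lowered 3 of the 9 genes by edgeR and raised 0. The share of all genes called was 20.2%, with 10.6% higher and 9.59% lower. By limma-voom 4 of the 9 were called, against 29.2% of all genes, and the member it added was not followed singly. With library totals alone 2 of the 9 were called, against 22.5% of all genes. The share of higher calls among all genes moved there from 52.6% to 73.7%. *G6pdx* fell 3.05-fold from the KO CTR values given above (log2 -1.61, SE 0.33, adjusted p 0.00200), with no overlap. *Idh1* was 269, 338, 276 and 286 CPM in KO CTR liver and fell 1.76-fold (log2 -0.81, SE 0.11, adjusted p 6.83e-05). *Taldo1* was 131, 124, 133 and 123 CPM in KO CTR liver and fell 1.28-fold (log2 -0.36, SE 0.09, adjusted p 0.00851). The *Taldo1* call was lost with library totals alone (-0.24, adjusted p 0.104) and without KO noCys replicate 3 (-0.33, adjusted p 0.0555); *G6pdx* and *Idh1* were called in every such fit. Of the marker genes tested, 2 of 7 for hepatocytes, 3 of 5 erythroid and 2 of 5 stellate and fibroblast genes were called lower in this comparison, as were 1 of 5 endothelial and 1 of 5 cholangiocyte genes, while 1 of 3 adipocyte genes was called higher and 0 of 8 Kupffer cell and leukocyte genes were called. The summed hepatocyte markers were 71835 to 82087 CPM in KO CTR liver, above the KO noCys range, and erythroid markers 179 to 338 CPM, also above it, whereas stellate and fibroblast markers overlapped (186 to 387 against 194 to 222 CPM). Their part in these results was not tested. *Pgd*, which differed between genotypes on noCys, was 44.5, 35.4, 35.3 and 39.5 CPM in KO CTR liver, a range around the KO noCys values. Its difference within KO liver was 0.0026 (adjusted p 0.992 by edgeR). *Me1* differed by 0.03 (95% interval -0.57 to 0.63), a value whose sign changed with the libraries used. *Pgls*, *Tkt*, *Rpia* and *Rpe* differed by 0.23, 0.13, 0.43 and 0.09 and did not pass by edgeR.

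When tryptophan was removed from the diet of KO animals, *Me1* was the gene that fell. It was 145, 111, 125 and 88.6 CPM in KO CTR liver, all above the 5 KO noTrp libraries, a 2.03-fold decrease (log2 -1.02, SE 0.25, 95% interval -1.55 to -0.49, adjusted p 0.0398). This was the only call among the 9 genes, against 1.87% of all genes, while 5 of 9 had an unadjusted p under 0.05, against 16.9% of all genes. DESeq2 and limma-voom each called 3 of 9, against 4.22% and 4.24% of all genes. The others were *Tkt* (-0.47, adjusted p 0.0948), which was 135, 123, 119 and 110.3 CPM in KO CTR and 92.4, 86.3, 78.9, 86.7 and 94.2 CPM in KO noTrp liver without overlap, *G6pdx* (-0.88, adjusted p 0.0948), *Pgd* (-0.25, adjusted p 0.204) and *Taldo1* (-0.21, adjusted p 0.179). *Tkt* and *G6pdx* were the genes that both other tools added. The *Me1* call was lost in 6 of 9 fits that left out a library (KO CTR replicates 1 and 3 and KO noTrp replicates 1 to 4; -1.03 to -0.91, adjusted p 0.0694 to 0.139) with library totals alone (-0.96, adjusted p 0.0567) and with the replicate number as a block (-1.10, adjusted p 0.0590). Of the marker genes tested, 1 of 7 for hepatocytes was called lower and 1 of 8 for Kupffer cells and leukocytes higher. Summed hepatocyte markers were 62089 to 84816 CPM in KO noTrp liver and Kupffer cell and leukocyte markers 184 to 297 CPM, against 71835 to 82087 and 111 to 230 CPM in KO CTR liver, and their part in the *Me1* result was not tested. *Idh1* was 268, 256, 307, 244 and 247 CPM in KO noTrp liver, overlapping the KO CTR range, and *Pgls*, *Rpia* and *Rpe* differed by 0.09, -0.17 and -0.04.

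KO noCys and KO noTrp livers, compared directly, differed in 3 of 9 genes, against 13.9% of all genes. *Me1* was 2.07-fold higher on noCys (log2 1.05, SE 0.27, adjusted p 0.0132) and *Tkt* 1.52-fold higher (log2 0.61, SE 0.16, adjusted p 0.0136), each with every noCys library above every noTrp library. *Idh1* was 1.59-fold lower on noCys (log2 -0.67, SE 0.11, adjusted p 0.000572). The *Me1* call was lost without KO noCys replicate 3 (1.01, adjusted p 0.0719), and the *Tkt* call without KO noCys replicate 1 (0.52, adjusted p 0.0547) or 3 (0.64, adjusted p 0.0513). *G6pdx* (-0.73, adjusted p 0.141), *Pgd* (0.26, adjusted p 0.127) and *Rpia* (0.61, adjusted p 0.151) did not pass, although *Rpia* did without KO noCys replicate 1 (0.88, adjusted p 0.0315), the lowest of the KO noCys libraries for this gene, and with limma-voom (0.69, adjusted p 0.0403). All 3 calls were made without KO noTrp replicate 1 and without replicate 2. *Pgls*, *Taldo1* and *Rpe* differed by 0.15, -0.15 and 0.13 and did not pass. Markers called lower on noCys were 3 of 8 for Kupffer cells and leukocytes, 3 of 5 endothelial, 1 of 7 hepatocyte, 1 of 5 cholangiocyte and 1 of 3 adipocyte genes, with 0 higher in any list. The summed hepatocyte markers given above for KO noCys and KO noTrp liver overlapped, with the lower values on noCys as for *Idh1*, and the part of these markers was not tested.

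In WT livers 0 of 9 genes were called for either diet by edgeR, DESeq2 or limma-voom. Removing cysteine gave calls by edgeR for 0.661% of all genes and an unadjusted p under 0.05 for 1 of 9, against 13.9% of all genes. That was *Pgd*, at 35.8, 34.2 and 28.0 CPM on CTR and 24.7 to 29.7 CPM on noCys, a difference of -0.30 (adjusted p 0.259). *Me1* was 168, 154 and 93.5 CPM on CTR, and its difference on noCys was -0.54 (95% interval -1.14 to 0.06, adjusted p 0.410). The other 7 genes differed by -0.39 (*Rpia*) to 0.32 (*G6pdx*). Removing tryptophan gave calls by edgeR for 3.19% of all genes and an unadjusted p under 0.05 for 0 of 9, against 18.2% of all genes. Here too the WT noTrp pair decided the value: *Me1* differed by -0.63 (adjusted p 0.355), by -1.77 (adjusted p 0.0318) without replicate 1 and by 0.00 without replicate 2, and *Tkt* by -0.13, with -0.75 (adjusted p 0.0517) without replicate 1 and 0.30 (adjusted p 0.275) without replicate 2. The other 7 genes differed by -0.40 (*Rpia*) to 0.08 (*Pgls*).

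Across the 21 libraries *Tkt* and *Me1* followed each other most closely of the 36 pairs of members, with a Pearson correlation of log2 CPM of 0.88. They were low together in WT noTrp replicate 2 and in all KO noTrp libraries. *Pgd* and *Tkt* correlated at 0.68, *Taldo1* and *Idh1* at 0.68, *G6pdx* and *Idh1* at 0.62 and *G6pdx* and *Taldo1* at 0.61, whereas *Pgls* and *Idh1* had the most negative value, -0.56. These values describe libraries that share group, sequencing and scaling and are not tests.

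**Figure D4:**
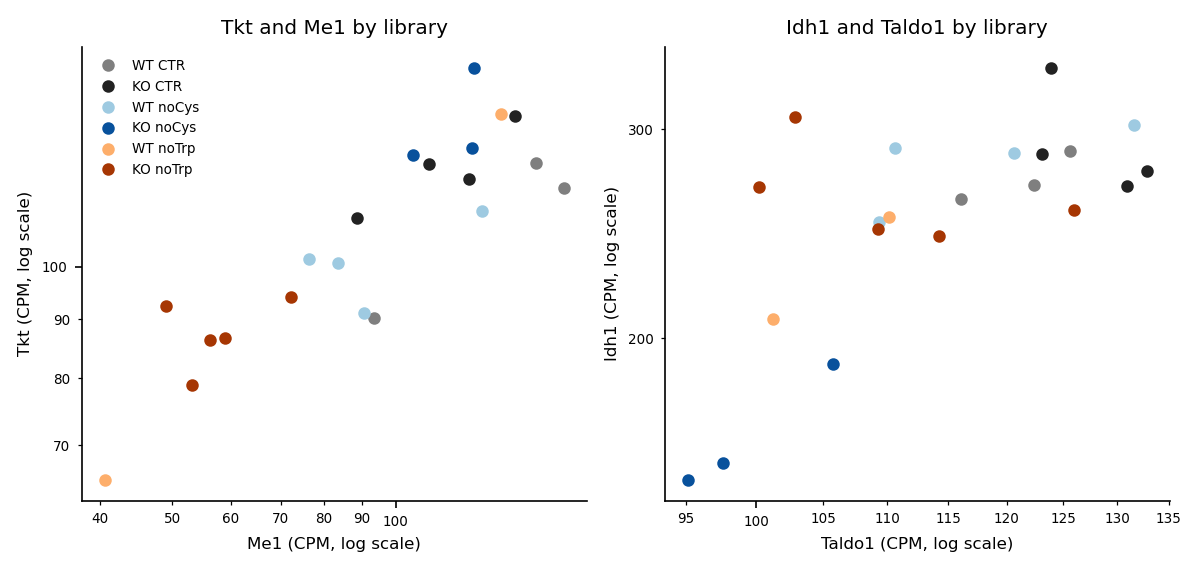
CPM (log scales) of *Tkt* against *Me1* and of *Idh1* against *Taldo1*, one point per library coloured by group. The 5 KO noTrp libraries and WT noTrp replicate 2 fill the low end of the left panel, and the 3 KO noCys libraries lie lowest for *Idh1* on the right, at 152 to 190.0 CPM.

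Among all tested genes with a name, those most like each member over the same 21 libraries were as follows. For *Idh1* they were *Hadh* (0.94), *Aldh7a1* (0.92) and *Akr1c20* (0.91). For *Pgls* they were *Bola1* and *Rpsa-ps10* (both 0.91) and *Gpx4* (0.88), and for *Taldo1* they were *Aldoc*, *Dhcr7* and *Msmo1* (0.86, 0.86 and 0.85), of which *Dhcr7* and *Msmo1* act in cholesterol synthesis. *Me1* was the gene most like *Tkt*, and *Tkt* the one most like *Me1*. The closest genes of the remaining members were *Zfp790* for *G6pdx* (0.79), *Rpp40* for *Pgd* (0.79), *Iffo2* for *Rpia* (0.85) and *Armh3* for *Rpe* (0.84).

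Other genes of the same chemistry were read in KO noCys against WT noCys liver, where the 28.2% background holds. Of 12 further pentose phosphate and ribose phosphate genes, such as *H6pd*, *Rbks*, *Prps1* and *Pgm2*, 9 were tested and 0 called by edgeR, with fold changes from -0.31 to 0.43; *G6pd2*, *Tktl1* and *Tktl2* were too low to test. Of 12 other genes of NADPH supply 11 were tested and 5 called. The mitochondrial folate enzymes *Mthfd2* (23.7 ± 15.3 against 0.889 ± 0.181 CPM, SD, n = 3 and 4, log2 4.78, adjusted p 8.98e-07) and *Aldh1l2* (2.45 ± 1.07 against 0.250 ± 0.10 CPM, log2 3.22, adjusted p 0.000266) differed most. Both were higher in KO noCys liver, as was the mitochondrial transhydrogenase *Nnt*, by 0.61. The *Aldh1l2* level in WT noCys liver rests on few reads, so the size of its difference is uncertain. Whether it passed the filter on low counts only through groups with more reads was not examined. *Mthfd2l* (log2 -0.96) and the glutamate dehydrogenase *Glud1* (log2 -0.49) were lower. The *Mthfd2* difference exceeded that on CTR by 3.75 (adjusted p 0.00618), and *Nnt* also rose within KO liver (noCys against CTR 0.60, adjusted p 0.00339).

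The genes that spend NADPH differed between the genotypes on noCys in both directions. Of 14 genes of lipid and sterol synthesis and their regulators 5 were called, 1 higher and 4 lower. Among them the fatty acid desaturase *Scd1* (453 ± 332 against 8555 ± 2036 CPM, log2 -4.24) and the sterol enzymes *Sqle* (-1.05) and *Dhcr7* (-0.78) were lower. Acetyl-CoA carboxylase *Acaca* (0.60) was higher. In KO noTrp against KO CTR liver 7 of these 14 were called, against 1.87% of all genes, 1 higher and 6 lower, with *Scd1* at -3.00 and *Sqle* at -2.06. In fits added after seeing the data the number called was 5 without KO noTrp replicate 1, 6 without replicate 2, 4 without replicate 3 and 3 without KO CTR replicate 1, and *Scd1* (-3.24 to -2.78) and *Sqle* (-2.24 to -1.88) were called without each of the 9 libraries in turn. Of 13 NADPH-using reductases 7 were called on noCys. The quinone reductase *Nqo1* (23.3 ± 0.423 against 6.34 ± 0.158 CPM, log2 1.87), *Cbr3* (1.86), the biliverdin reductase *Blvrb* (0.70) and the aldehyde reductase *Akr1a1* (0.54) were higher. *Ptgr1* (-1.66) and the thioredoxin reductases *Txnrd3* (-1.04) and *Txnrd2* (-0.60) were lower. *Nqo1* is known as an NRF2 target too and was counted with the reductases. Of 6 tested genes in a separate list tied to NRF2, 1 was called, *Srxn1*, sulfiredoxin (72.2 ± 21.2 against 28.5 ± 1.74 CPM; log2 1.35), and *Slc7a11* was too low to test. Of 12 genes of the feeding state 3 were called, 1 higher and 2 lower, among them *Cpt1a*, higher by 0.44, and *Pck1* (-0.64), which was lower. The medians of the 6 lists in this comparison ran from -0.48 for lipid and sterol synthesis to 0.42 for the reductases, against -0.02 over all genes. Calls were lost without single libraries for *Mthfd2l* (KO noCys replicate 4), *Glud1* (WT noCys 1, KO noCys 3 or 4), *Acaca* (WT noCys 1 or 2, KO noCys 3 or 4), *Sqle* (WT noCys 2, each of the KO noCys libraries), *Cbr3* (KO noCys 3) and *Cpt1a* (WT noCys 3, KO noCys 1 or 3). Calls were also lost with library totals alone for *Mthfd2l*, *Glud1* and *Sqle*, with limma-voom for *Sqle* and *Cbr3*, and in the fit of these groups only and with the replicate block for *Sqle*. For the genes named as losing calls without a library, the highest adjusted p over all alternatives was 0.0634, 0.141, 0.113, 0.141, 0.131 and 0.0759 in that order.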

How the data were processed

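Liver RNA was extracted with TRIzol, poly(A)-selected and sequenced from both ends. Per the labels and the study's methods the authors aligned reads to GRCm38 with HISAT2 2.1.0 and deposited raw integer counts per gene from HTSeq 0.11.0; the annotation release and strand setting were not given in the sources used here. Of the table's columns, 1 fitted none of the sample labels and stayed out. The titles of the KO noCys libraries carry only the numbers 1, 3 and 4. Whether the unused column belongs to that group is not stated. The study describes further libraries that were not analysed here.

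Counts of 46078 identifiers (45143 in GENCODE M21; the other 935 held 0.0715% of counts) in 21 libraries of 6 groups were scaled by TMM in edgeR 4.0.16 (R 4.3.3), filtered by filterByExpr (minimum count 10, minimum total 15) and fitted in a one-way model over all groups with the quasi-likelihood test. Tests were two-sided, with Benjamini-Hochberg adjustment over 14370 genes and a threshold of 0.05. Library totals of 8889951 to 27230852 set the precision, and TMM factors were 0.883 to 1.14. CPM are TMM-scaled, and a prior count of 2 was added for log2 CPM. Alternatives were DESeq2 1.42.0, limma 3.58.1 voom with quality weights, RLE factors, library totals alone, no filter, a fit of the compared groups alone, a block for the replicate number, and leaving out each of 21 libraries. The fit was tested on simulated data with known changes.

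The 9 members were read in every comparison, those not called mostly as ranges, together with genes of 6 pathway lists that were called in KO noCys against WT noCys (some are not reported here) and the 3 genes most correlated with each member. Members and lists were chosen with earlier results of these data known. Numbers of replicates came from titles.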

Additional observations from a re-analysis of the deposited data

Results flagged for a closer look

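In 27 sets of libraries (9 genes in the groups of 4 or 5 libraries) a gap test for a library far from its group marked 2, where chance marks about 1 in 20. *Pgls* was 123 CPM in KO noTrp replicate 2 against 80.1 to 89.9 CPM in the other KO noTrp libraries. *Pgd* was 29.0 CPM in KO noTrp replicate 3 against 32.8 to 34.4 CPM in the others. No difference that uses KO noTrp liver was called for these genes in the fit to all libraries.

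The genotype difference changed with diet in 3 instances, each by the test of that change over 4 groups. From CTR to noCys the KO against WT difference changed by -1.93 for *G6pdx* and by -0.86 for *Idh1*, and against noTrp that of *Idh1* changed by -0.96 on the log2 scale.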

How the results depend on the processing

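*Idh1* in 5 comparisons, *Pgd* and *Pgls* in KO noCys against WT noCys, and *G6pdx* in KO noCys against KO CTR and in the change of the genotype difference from CTR kept direction and call under every alternative; the other called members lost their call in at least 1, and where no value above shows why, the cause was not tested. Leaving out 1 library moved the number of members called between 3 and 5 in KO noCys against WT noCys (5 with all), 1 and 3 in KO noCys against KO noTrp (3), 0 and 2 in KO against WT on noTrp (0), 0 and 1 in WT noTrp against CTR (0), 0 and 1 in KO noTrp against CTR (1), and 1 and 4 for the change of the genotype difference between noTrp and noCys (1). KO noTrp against CTR gave 3 by DESeq2 and 3 by limma-voom, against 4.22% and 4.24% of all genes. It gave 0 with library totals alone and 2 with only the groups compared, against 1.72% and 1.04% of all genes. The change from CTR to noCys gave 4 by limma-voom, against 15.2% of all genes, and the change from noTrp 2 with library totals alone, against 8.74%. Single members were followed under each alternative where their unadjusted p was under 0.05, and otherwise only in KO noCys against WT noCys, for *Me1*, and for *Tkt* between the genotypes on noTrp and in WT noTrp against CTR. Among the differences that were, the fold changes that reversed were those of *Me1* in KO noCys against CTR (main 0.03; leaving out 1 library, -0.094 to 0.146, below 0 without KO CTR replicate 4 and without KO noCys replicate 1 or 3), *Me1* (-1.26 to 0.51) and *Tkt* (-0.63 to 0.43) in KO against WT on noTrp, above 0 without WT noTrp replicate 1, *Me1* (-1.77 to 0.0021) and *Tkt* (-0.75 to 0.30) in WT noTrp against CTR, above 0 without WT noTrp replicate 2, and *Me1* (-0.18 to 1.59) and *Tkt* (-0.026 to 1.03) in the change from noTrp, below 0 without WT noTrp replicate 1.

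Replicate numbers did not pair the samples: deviations of libraries with the same number correlated at a median of -0.03 (41 pairs, -0.36 to 0.35), and those with different numbers at 0.01 (140 pairs). With the number as a replicate block, KO noTrp against CTR called 0 members (*Me1* -1.10, adjusted p 0.0590), KO noCys against WT noCys called 4 (*Taldo1* -0.22, adjusted p 0.106), and *Me1* in KO noCys against CTR was -0.0094.

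Over all genes, calls without leaving out libraries ranged from 3443 to 5363 in KO noCys against WT noCys (main 4055), 2373 to 4195 in KO noCys against CTR (2906), 1302 to 3204 in KO noCys against KO noTrp (2000), 136 to 610 in KO noTrp against CTR (269), 6 to 154 on CTR (46), 4 to 117 on noTrp (28), 14 to 533 in WT noCys (95), 3 to 805 in WT noTrp (459) and 817 to 2179 and 553 to 1266 for the changes against CTR (1069) and noTrp (912). Leaving out 1 library gave 2358 to 3895, 1379 to 2979, 570 to 2124, 105 to 447, 9 to 53, 14 to 230, 1 to 53, 99 to 728, 430 to 1399 and 416 to 1179 calls in the same order. Library totals alone moved the share of higher calls from 51.5% to 68.3% in KO noCys against KO noTrp, 41.6% to 55.5% in KO noTrp against CTR, 53.2% to 78.0% in WT noTrp against CTR, 21.7% to 36.6% in KO against WT on CTR, and from 47.9% to 72.6% and 52.3% to 81.4% in the changes against CTR and noTrp. Without a WT noTrp library 1 remains, assumed to vary like the other groups. Counts of 14 to 101 limit *G6pdx*, and 24 to 130 limit *Rpia*.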
